A study of Mus musculus with 95 samples.

Results

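Transcripts typical of stratified squamous epithelium and of skeletal muscle were followed across 95 arrays of mouse lung RNA. The genes were Krt4, Krt13, Krt5, Lgals7 and Mt4 for squamous epithelium and Myl3, Ckm and Acta1 for skeletal muscle. The members were the probe sets that the platform annotation pairs with only 1 of these 8 genes, which are 8 of the 8252 genes named on the array. They gave 12 of the 12487 probe sets, 8 for the squamous genes and 4 for the muscle genes. The genes had been chosen because their values stood apart on some of these same arrays. Their levels are therefore a description of where they lay, with no test.

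The study compared lungs of mice that shared a cage with a seeder mouse carrying Pneumocystis murina, a fungus of the mouse lung, with lungs of unexposed mice. All mice were labelled female and 8 weeks old, and were of the C57BL strain (75 arrays) or CD40L-KO, a strain that lacks CD40 ligand (20 arrays). Each array held RNA of lung homogenate, and each is treated as 1 mouse. There were 60 exposed and 35 unexposed arrays in 19 groups set by strain, exposure and day, each of 2 to 10 arrays. Experiment 1 held both strains at day 32, experiment 2 held C57BL mice at days 34 and 41, and experiment 3 held C57BL mice at days 7, 14 and 21. Experiment 4 held CD40L-KO mice exposed for 35 days and unexposed CD40L-KO mice that are labelled day 14, so day and exposure cannot be told apart in it. The 8 exposed arrays of days 39 and 75 have no experiment stated and no unexposed mice of their own day. Exposed and unexposed mice of experiments 1 to 3 did not share cages, so the cage cannot be told apart from exposure. The labels do not say which parts of the airway or which neighbouring tissues were taken with the lung.

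Keratins form filaments from pairs of a type I and a type II chain. Keratin 4 with keratin 13 is the pair of the upper layers of internal squamous epithelium such as that of the mouth and oesophagus. Keratin 5 belongs to the basal layer, galectin-7 (Lgals7) is a sugar-binding protein of stratified epithelia, and Mt4 is the metallothionein of that tissue. In skeletal muscle, Acta1 encodes the actin of the thin filament, Ckm the creatine kinase that buffers ATP, and Myl3 the essential myosin light chain of slow fibres and of the heart ventricle. In the mouse the wall of the oesophagus holds both stratified squamous epithelium and skeletal muscle.

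Levels are given as log2(intensity + 8), so that an intensity of 0 gives the floor of 3 and differences of dim probe sets are understated. The squamous score is the mean of this level over the 5 squamous genes and the muscle score its mean over the 3 muscle genes, each gene by its brightest probe set. Array medians of intensity lay between 35.5 and 46.3, and the number of arrays limits the precision. No 2 arrays held identical values (0 identical pairs). The transcript of the gene missing in CD40L-KO mice, Cd40lg, lay between 3.05 and 3.75 on every array and does not check the strain labels. Markers of lung were high on every array, with Sftpc, the surfactant protein of alveolar type II cells, at 12.38 or more and Scgb1a1, the secretory protein of club cells, at 12.18 or more.

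Promoter sequence from RefSeq (GRCm38.p6) is shown for 4 members, since the members other than Krt5 moved with others of their set across arrays. Of the 8 genes, 7 matched the table, with 8 promoters, and Krt4 did not. The 250 bases before each start were searched on both strands for the CArG box, the element bound by serum response factor, and for TATAAA, the core of the TATA box. Capitals mark matches.
Acta1 promoter, chr8:123894776-123895025, minus strand: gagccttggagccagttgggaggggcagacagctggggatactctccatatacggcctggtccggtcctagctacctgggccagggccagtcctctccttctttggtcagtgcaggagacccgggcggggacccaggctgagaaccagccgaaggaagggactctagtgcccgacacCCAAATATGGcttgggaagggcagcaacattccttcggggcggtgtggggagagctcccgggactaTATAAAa
Myl3 promoter, chr9:110763428-110763677, plus strand: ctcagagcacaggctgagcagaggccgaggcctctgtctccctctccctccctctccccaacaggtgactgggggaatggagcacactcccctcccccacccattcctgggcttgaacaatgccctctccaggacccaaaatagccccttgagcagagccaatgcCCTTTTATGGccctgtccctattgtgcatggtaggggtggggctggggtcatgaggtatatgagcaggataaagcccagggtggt
Ckm promoter, chr7:19410844-19411093, plus strand: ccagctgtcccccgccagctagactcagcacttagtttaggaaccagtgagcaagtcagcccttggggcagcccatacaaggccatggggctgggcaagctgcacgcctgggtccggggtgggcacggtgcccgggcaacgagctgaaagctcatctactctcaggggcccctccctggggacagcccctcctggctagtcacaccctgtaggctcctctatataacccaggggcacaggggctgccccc
Mt4 promoter, chr8:94136954-94137203, plus strand: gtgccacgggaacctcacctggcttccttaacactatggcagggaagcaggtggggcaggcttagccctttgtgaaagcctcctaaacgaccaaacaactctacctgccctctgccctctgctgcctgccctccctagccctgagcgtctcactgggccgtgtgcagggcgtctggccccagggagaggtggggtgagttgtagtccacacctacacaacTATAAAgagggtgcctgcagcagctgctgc
A CArG box lay 73 bases before the start of Acta1 and 85 bases before that of Myl3. This motif was found in 1.47% of the 32851 promoters of the table. It was not found in these windows of Ckm, Krt13, Krt5, Lgals7 or Mt4. TATAAA was found in 12.4% of promoters, among them Mt4, 30 bases before its start, and Acta1, 7 bases before its start. All distances are counted from the annotated start. A match describes the letters only.

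The squamous genes divided the arrays into 2 sets with a wide gap between them. Of the 95 arrays, 16 had a squamous score of 7.57 or more and 79 a score of 4.71 or less, and the split was set in the middle of that gap, at 6.14. The array just inside was CD40L-KO day 32 exposed replicate 3 and those just outside were C57BL day 41 unexposed replicate 1 and C57BL day 14 exposed replicate 6. Keratin 4 lay between 10.87 and 12.50 on the 16 arrays, with a median of 12.04. On the 79 it lay between 5.15 and 7.55, with a median of 6.60, clear of the floor. Keratin 13 had a median of 11.05 on the 16 arrays, with a range from 9.34 to 12.07, and of 4.15 on the 79, where it never passed 4.87. Galectin-7 ran from 6.38 to 10.00 on the 16 arrays, with a median of 8.09, and from 3.18 to 3.85 on the others. Mt4 ran from 7.53 to 10.93, with a median of 9.22, and from 3.18 to 3.88 on the others. For these 4 genes the lowest of the 16 arrays lay above the highest of the 79, and for Lgals7 and Mt4 the other arrays were near the floor. The split was set on these same genes, so this separation is largely built in. The share of all probe sets that separate the same arrays was not counted. A bulk sample cannot show whether a lower level comes from fewer cells of a type or from less RNA in each cell.

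Krt5, the basal keratin, did not follow the other squamous members. Its only probe set lay between 3.29 and 4.77 on the 16 arrays and between 3.31 and 5.16 on the 79, so that the ranges overlapped over most of their length. Other basal keratins were near the floor as well. Krt14, the usual partner of keratin 5, lay between 3.40 and 4.72 on the 16 arrays with a median of 3.99, and reached 4.58 on the others, with a median of 3.41. Its r with the squamous score was 0.59 over the 95 arrays, and Krt15 never passed 3.59 on any array. Some other genes of the basal layer, picked after their values were seen, were higher on the 16 arrays. Col17a1, a collagen of the hemidesmosome, had r = 0.75 and lay between 5.70 and 7.19 there and between 3.62 and 6.04 on the others. Trp63, a transcription factor of basal cells, had r = 0.54, with medians of 5.18 and 4.68. Its ranges overlapped, at 4.75 to 5.98 against 3.50 to 5.46. Lamb3 and Dsc3, of the squamous marker list given below, did not follow, with r = -0.13 and 0.20. Their medians were 7.63 against 7.77 and 3.46 against 3.35.

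Several genes had more than 1 probe set, and these did not always agree. The dimmer Krt4 probe set, 161647_f_at, separated the 16 arrays (6.59 to 8.68) from the others (3.11 to 5.13), as did the Krt13 probe set 160510_f_at (8.94 to 11.72 against 3.16 to 4.56). The third Krt13 probe set, 162322_r_at, stayed between 3.08 and 5.07 on all 95 arrays. Of the probe sets for Ckm, 161569_f_at ranged from 3.26 to 8.68 and 160175_at from 3.43 to 5.84 with no relation to it (r = -0.02 over 95 arrays). In all, 9 of the 12 member probe sets covered over 5 units of log2 and 3 covered less than 2.5. Suffixes such as _f_at and _s_at mark probe sets whose probes may match several transcripts of a family, and the best Krt13 and Ckm probe sets carry them.

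**Figure D1:**
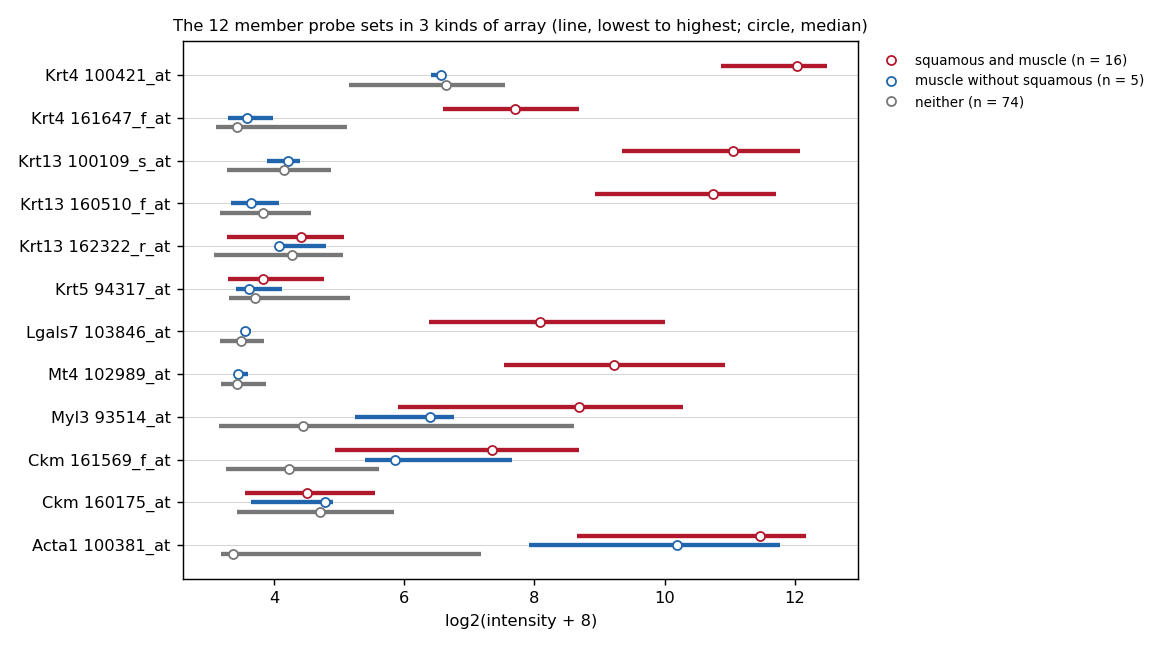
Level of each of the 12 member probe sets, as log2(intensity + 8) on the horizontal axis, on 16 arrays with squamous and muscle transcripts, 5 with muscle transcripts only and 74 with neither. Lines run from the lowest to the highest array and circles are medians. The 16 arrays were set apart by the squamous genes, and 6 probe sets of Krt4, Krt13, Lgals7 and Mt4 separate them from all others. Krt5, Krt13 162322_r_at and Ckm 160175_at overlap throughout.

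Acta1 was high on all 16 of these arrays, and Myl3 and Ckm on most of them. Acta1, the skeletal muscle actin, lay between 8.66 and 12.18 there, with a median of 11.46. Myl3 lay between 5.90 and 10.29, with a median of 8.68, and Ckm between 4.93 and 8.68, with a median of 7.35. On the 79 arrays without squamous transcripts the medians were 3.38 for Acta1, 4.48 for Myl3 and 4.24 for Ckm. The groups of arrays overlapped for each muscle gene, because Acta1 reached 11.77, Myl3 8.60 and Ckm 7.65 on arrays without squamous transcripts. CD40L-KO day 32 exposed replicate 3, among the 16, also had Myl3 at 5.90 and Ckm at 4.93, inside the ranges of the 79.

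Muscle transcripts were called present on an array where the muscle score was more than 2 above its median of 4.16 over all arrays. This held for 21 arrays, namely all 16 with squamous transcripts and 5 others, and 74 arrays had neither. No array had squamous transcripts alone (0 of 95). The lowest score counted was 6.44, on C57BL day 32 unexposed replicate 1, and the highest not counted was 6.10, on C57BL day 34 exposed replicate 7. The muscle score has no gap there as the squamous score has, so the 5 arrays depend on where the line is drawn. The 0 for squamous transcripts alone does too, since CD40L-KO day 32 exposed replicate 3, among the 16, scored only 6.50. Acta1 alone passed 6 on 24 arrays, the 21 and 3 more, which were C57BL day 14 exposed replicate 2 at 7.18, C57BL day 34 exposed replicate 2 at 7.16 and C57BL day 21 unexposed replicate 2 at 6.16. On the other arrays it stayed at 4.44 or less.

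Within the 16 arrays the 2 scores rose and fell together. Pearson's r was 0.90 and Spearman's rho 0.93 over the 16 arrays, and r was 0.88 without the 2 arrays farthest from the median squamous score. The points share the array and its scaling, and no p is given because the genes were chosen for this pattern. In experiment 2 alone, the only one with at least 6 such arrays, r was 0.67 over 7 arrays. The highest scores for both were on C57BL day 14 unexposed replicate 4, with 9.80 for squamous and 10.34 for muscle. The lowest for both were on CD40L-KO day 32 exposed replicate 3, with 7.57 and 6.50. Among the 79 arrays below the split there was no such relation, with r = -0.08 and rho = -0.13, and r between -0.20 and -0.03 in experiments 1 to 4. Among the 8 arrays of days 39 and 75 r was 0.54, and -0.09 without the 2 farthest arrays.

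**Figure D2:**
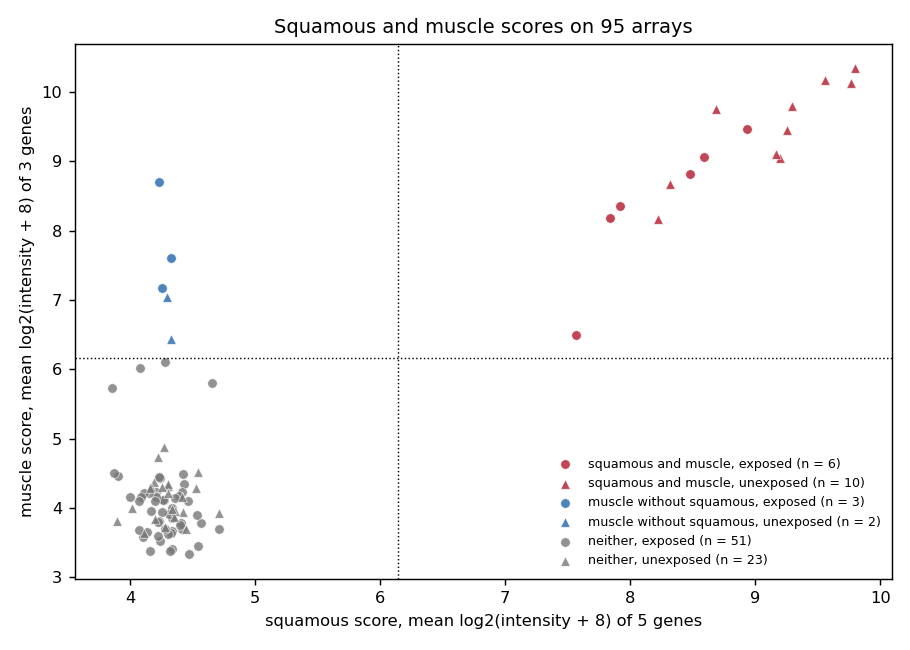
Squamous score (horizontal) against muscle score (vertical) on 95 arrays, both as mean log2(intensity + 8); circles are exposed and triangles unexposed mice, and dotted lines mark 6.14 and 6.16. The 16 arrays with squamous transcripts form a rising band at the upper right, 5 arrays lie above the line for muscle only and the lower right is empty.

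Pairs of single genes other than Krt5, each by its brightest probe set, showed the same order. Over the 16 arrays Krt4 and Acta1 had r = 0.84, Mt4 and Acta1 0.84, and Lgals7 and Ckm 0.88. Within the squamous set Krt13 and Mt4 had r = 0.95, Lgals7 and Mt4 0.93 and Krt4 and Krt13 0.74. Krt5 had r of 0.33 with Krt4, 0.00 with Mt4 and -0.17 with Krt13. Within the muscle set Myl3 and Ckm had r = 0.95 and Myl3 and Acta1 0.92. Over the 79 arrays the muscle genes still varied together, with 0.72 for Ckm and Acta1, 0.66 for Myl3 and Ckm and 0.51 for Myl3 and Acta1. In the squamous set Krt13 and Mt4 had 0.03 there, Lgals7 and Mt4 0.23 and Krt4 and Lgals7 0.27, on arrays where Lgals7 and Mt4 did not pass 3.85 and 3.88.

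The arrays with squamous transcripts were spread over 4 experiments, both strains and both arms, and were unevenly divided among groups. They made up 10 of 35 unexposed arrays (28.6%) and 6 of 60 exposed arrays (10.0%). Within experiments the shares were 2 of 5 unexposed against 1 of 6 exposed arrays in experiment 1, 4 of 10 against 3 of 20 in experiment 2, 3 of 15 against 2 of 22 in experiment 3 and 1 of 5 against 0 of 4 in experiment 4. The share was higher among unexposed mice in each experiment, and this difference was not tested. In experiment 2 all 7 such arrays were among the 15 of day 34 and none among the 15 of day 41 (0 arrays), although the design text places 5 mice of each cage on each of those days.

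In the unexposed C57BL mice of day 34, Krt4 was at 12.19, 12.33, 11.41, 12.31 and 6.59 in replicates 1 to 5, and Acta1 at 11.38, 11.59, 10.75, 11.55 and 3.29. Replicate 5 stood apart from the other 4 for both genes. In the 10 exposed mice of that day Krt4 ran from 6.44 to 11.90 with a median of 7.01, and Acta1 from 3.28 to 11.72 with a median of 5.69. Replicates 1, 6 and 8 were the high ones for Krt4, at 11.90, 11.69 and 11.84. The other 7 exposed arrays lay between 6.44 and 7.19, beside the low unexposed array, so the groups overlapped.

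In the unexposed C57BL mice of day 41 Krt4 was at 7.55, 7.12, 6.86, 6.52 and 6.67, and in the 10 exposed mice of that day it ran from 6.35 to 7.01 with a median of 6.70. Mt4 stayed at 3.71 or less in both groups. All 15 arrays of day 41 were low for the squamous genes. Acta1 was at 10.90 in exposed replicate 3 and at 4.12 or less in the other 14 arrays.

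In CD40L-KO mice of day 32, Krt4 was at 12.34, 12.50 and 6.34 in unexposed replicates 1 to 3 and at 6.23, 7.01 and 10.87 in exposed replicates 1 to 3. Acta1 was at 11.68, 12.18 and 3.36 in the unexposed and at 3.58, 3.47 and 8.66 in the exposed mice. Each arm thus held high and low arrays. The C57BL mice of the same experiment were all low for Krt4, at 6.60 and 6.82 unexposed and 6.86, 6.67 and 6.65 exposed. Their Acta1 was at 7.92 and 4.20 unexposed and 3.38, 3.48 and 3.35 exposed.

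In experiment 3 the high arrays were few. At day 21 Krt4 was at 12.50, 6.77, 6.85, 12.20 and 7.04 in unexposed replicates 1 to 5, and Acta1 at 12.16, 6.16, 3.87, 11.87 and 3.74. The 6 exposed arrays of day 21 ran from 6.49 to 11.07 for Krt4 with a median of 6.62, and only replicate 3 was high. At day 14 the 6 unexposed arrays ran from 6.47 to 12.29 with a median of 6.64, and only replicate 4 was high. The 8 exposed arrays of day 14 ran from 6.00 to 7.52 with a median of 7.02, all low. At day 7 Krt4 was at 6.97, 6.57, 6.64 and 6.42 in unexposed replicates 1 to 4. The 8 exposed arrays of day 7 ran from 6.34 to 11.10 with a median of 6.55, and only replicate 7 was high.

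In experiment 4, Krt4 was at 11.19, 5.61, 5.72, 5.49 and 5.77 in unexposed replicates 1 to 5 and at 5.89, 5.35, 5.29 and 5.15 in the 4 exposed mice. Only unexposed replicate 1 was high, also for Acta1 at 10.83. The 8 low arrays of this experiment, between 5.15 and 5.89, lay at the lower end of Krt4 among arrays without squamous transcripts, since the other 71 ran from 5.76 to 7.55. At day 39 Krt4 was at 6.87 and 6.86. At day 75 it was at 6.21, 5.76 and 6.09 in CD40L-KO and at 5.91, 6.21 and 6.73 in C57BL mice, and Acta1 was at 3.99 or less in all 8 arrays of those days.

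**Figure D3:**
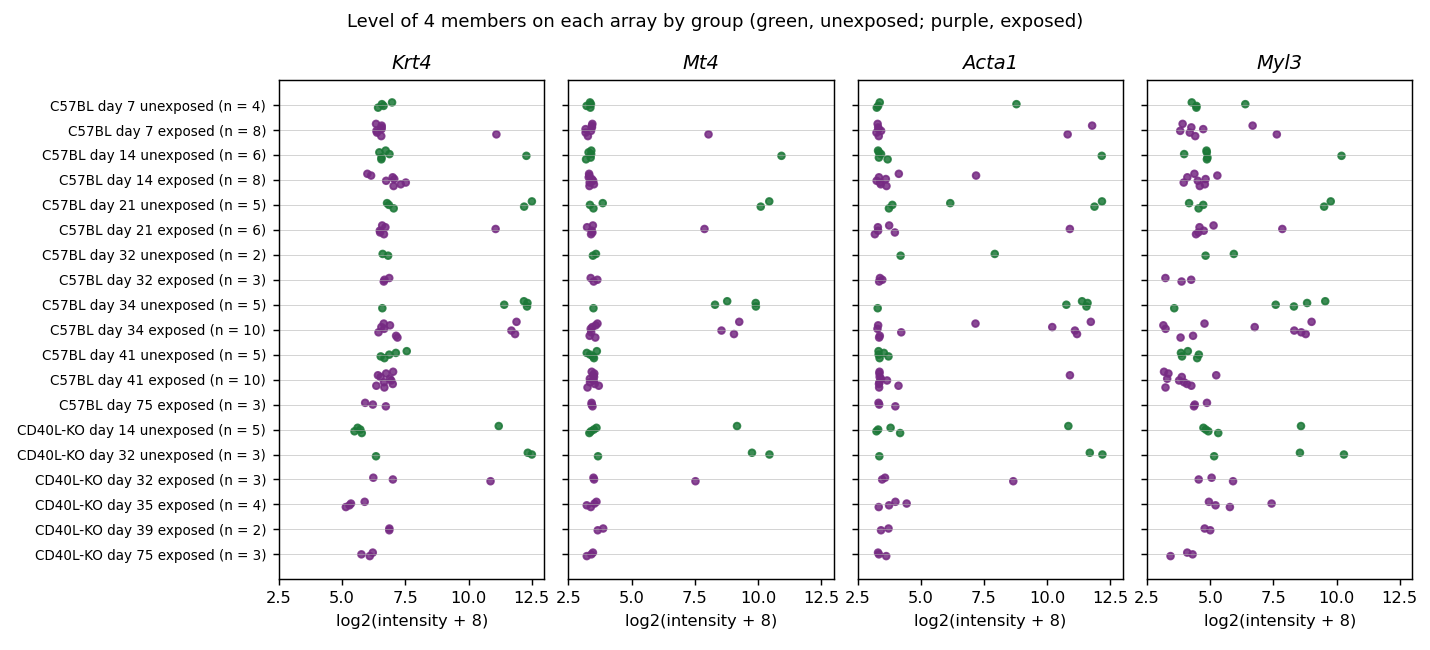
Krt4, Mt4, Acta1 and Myl3 on every array, as log2(intensity + 8) on the horizontal axis, with 1 row for each of the 19 groups (green, unexposed; purple, exposed; 1 point an array). In C57BL day 34, 4 of 5 unexposed arrays are high for Krt4 and Mt4, the 15 arrays of day 41 are all low, and Acta1 is high on a few further arrays.

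On the check of RNA quality that the array allows, the sets of arrays overlapped. The difference between the Gapdh probe sets of the 3' end and the 5' end (3' minus 5', log2) ran from -0.18 to 2.13 on them, with a median of 0.17, and from -0.17 to 1.59 on the others, with a median of 0.15. The 5 arrays above 1 were all of day 34 in C57BL mice, and their values stand beside that comparison. Among the 16, the squamous score had a median of 9.23 on the 10 unexposed arrays, from 8.22 to 9.80, and of 8.19 on the 6 exposed arrays, from 7.57 to 8.93, and these ranges overlapped.

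The 5 arrays with muscle but no squamous transcripts were not alike. They were C57BL day 7 exposed replicate 2, day 34 exposed replicate 4, day 41 exposed replicate 3, day 7 unexposed replicate 2 and day 32 unexposed replicate 1. Acta1 was at 11.77, 10.20, 10.90, 8.78 and 7.92 on them, and Krt4 stayed between 6.41 and 6.60. Myl2, the regulatory light chain of slow fibres and of the heart ventricle, told them apart. It was at 9.26 on day 7 exposed replicate 2 and 8.56 on day 41 exposed replicate 3, but at 3.26 on day 34 exposed replicate 4, 4.08 on day 7 unexposed replicate 2 and 4.60 on day 32 unexposed replicate 1. On the first pair Tnni1, the slow troponin I, was at 8.17 and 7.58, above its highest value of 7.02 on the 16 squamous arrays.

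Myl2 was near the floor on most arrays with squamous transcripts, although Myl3 had a median of 8.68 on them. It lay between 3.34 and 4.54 on 15 of the 16 and at 9.46 on C57BL day 34 exposed replicate 8. Over all 95 arrays Myl2 passed 8 on 5, and the next highest value was 5.21. Its other high arrays were C57BL day 34 exposed replicate 7, with 10.74, and CD40L-KO day 35 exposed replicate 2, with 8.73. On these the slow light chain Myl3 was at 8.60 and 7.43 while Acta1 was at 4.23 and 4.44 and Myh1, a fast myosin heavy chain, at 3.33 and 3.79. These arrays thus carried Myl3 with Myl2 and little skeletal actin, whereas 15 of the 16 carried Myl3 with Acta1 and little Myl2, so Myl3 taken alone does not tell the cases apart.

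**Figure D4:**
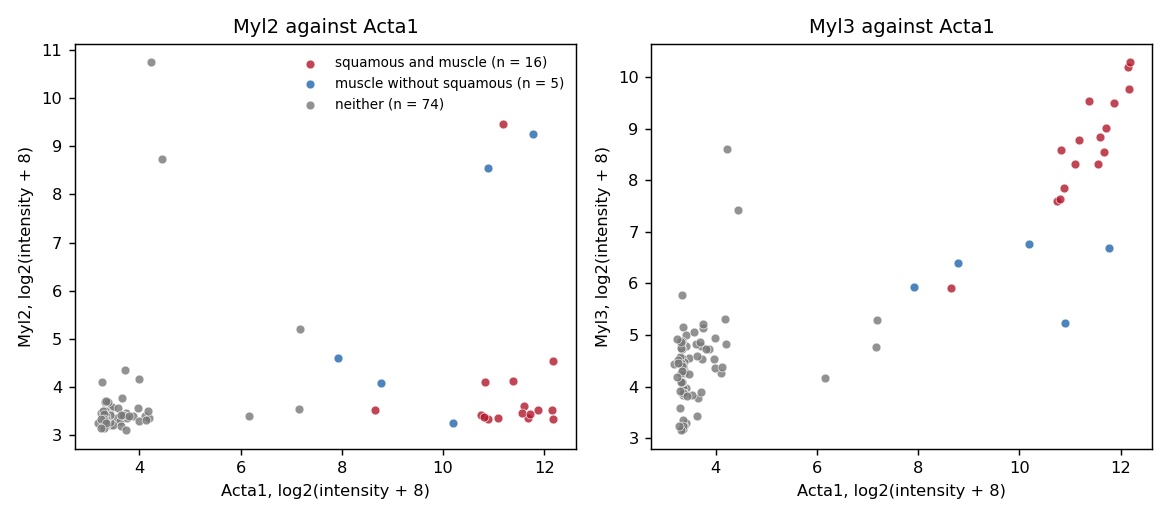
Myl2 (left) and Myl3 (right) against Acta1 on 95 arrays, all as log2(intensity + 8); colours give the 16 arrays with squamous and muscle transcripts, the 5 with muscle only and the 74 with neither. Myl3 rises with Acta1 on the 16 arrays while Myl2 is near the floor on 15 of them, and 2 grey arrays have Myl2 at 8.73 and 10.74 with Acta1 at 4.44 or less.

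Bright genes of heart muscle overlapped widely between the sets of arrays, with medians higher on the 16 and the 5 than on the 74. Myl7, the atrial regulatory light chain, ran from 7.54 to 11.45 on the 16 arrays, from 6.98 to 11.57 on the 5 and from 6.15 to 10.98 on the 74, with medians of 10.42, 10.31 and 9.09. Myl4, the atrial essential light chain, ran from 6.97 to 11.20, from 6.46 to 11.12 and from 5.76 to 10.83 in the same order, with medians of 9.91, 9.82 and 8.27. The cardiac actin Actc1 ran from 9.77 to 11.52, from 9.26 to 11.26 and from 8.92 to 11.43, with medians of 10.72, 10.52 and 9.97. The muscle-only arrays day 7 unexposed replicate 2 and day 32 unexposed replicate 1 had Myl7 at 11.37 and 11.57, near the top of all arrays, with their Myl2 low. The part of heart tissue in the values of Myl3 was not tested.

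The genes most like the squamous score over the 95 arrays were mostly dim on arrays without squamous transcripts. The 12 probe sets with the highest r, at 0.95 to 0.99, belonged to Crct1, Rptn, Sprr3, Krtdap, Calm4, Pkp1, Asprv1, Tgm3, Sim2, Serpinb3a and Sprr1b, with 2 of Crct1. Of these 11 genes 6 are in the squamous marker list. These genes were named because their pattern was closest, so the height of r is a description. Crct1, a small cysteine-rich protein, lay between 8.07 and 11.31 on the 16 arrays and between 3.08 and 4.30 on the others. Sprr3, a small proline-rich envelope protein of the oesophagus, lay between 8.90 and 11.34 against 3.39 to 5.45. Krtdap, which marks differentiating keratinocytes, lay between 8.92 and 11.74 against 3.81 to 6.17. Asprv1, a protease of stratified epithelium, lay between 8.06 and 11.02 against 3.60 to 6.55, and Tgm3, a transglutaminase that cross-links the envelope, between 5.09 and 8.60 against 3.13 to 4.37. Pkp1, a plaque protein of desmosomes, and the transcription factor Sim2 were dimmer, with medians of 6.30 and 5.73 on the 16 arrays. Within the 16 arrays, which are among those used to pick them, these probe sets had r of 0.82 to 0.96 with the score.

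The genes most like the muscle score were all in the list of fast skeletal muscle (11 of 11). That list was chosen with earlier results of these data known, so this count is a description. The 12 probe sets with the highest r, at 0.91 to 0.96, belonged to Myh1, Tnnt3, Myl1, Atp2a1, Tnni2, Actn3, Eno3, Tnnc2, Mylpf, Myh8 and Pygm, with 2 of Atp2a1. Myh1, the heavy chain of fast 2x fibres, lay between 5.34 and 10.11 on the 16 arrays, with a median of 8.53, and had a median of 3.22 on the others, where it reached 10.09. Tnnt3, the fast troponin T, had medians of 8.48 and 4.36. Atp2a1, the calcium pump of fast fibres, had medians of 7.85 and 3.53 with 1 probe set and 8.26 and 4.96 with the other. Actn3, the alpha-actinin of fast fibres, had medians of 7.23 and 3.98, and Eno3, the muscle enolase, 9.03 and 7.03. Myh8, the perinatal heavy chain, lay between 4.00 and 8.66 on the 16 arrays and reached 5.92 on the others, and was as close to the squamous score (r = 0.93) as to the muscle score (0.92). The muscle genes kept r of 0.54 to 0.86 with the muscle score on the 79 arrays without squamous transcripts, while the squamous genes had r of -0.12 to 0.63 with the squamous score there. These rankings rest on the high arrays, since ranking by Spearman's rho kept 2 of the 12 squamous and 3 of the 12 muscle probe sets, whereas deviations from group means kept 10 and 11.

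Marker lists of 16 tissues and cell types were set beside the scores, each gene by its brightest probe set. The lists were chosen with earlier results of these data known, so their counts and shares are descriptions with no test. Of 48 measured squamous genes, 17 had r above 0.8 with the squamous score (35.4%), where 0.570% of the 8244 genes that are no members did, and the median r was 0.46 against -0.02 for all genes. Perp, a desmosome-associated protein, had r = 0.94 and lay between 7.48 and 10.23 on the 16 arrays and between 5.63 and 7.04 on the others. Dsc2, a desmosomal cadherin, had r = 0.90. Members of the list that did not follow included Krt1 and Krt10, the keratins of cornified skin, with r = 0.04 and 0.11, S100a14 with 0.16 and Cstb with 0.18. Some other genes of the cornified layer did follow, which were picked after their values were seen. Lor, the cornified envelope protein loricrin, had r = 0.92 and lay between 7.89 and 10.83 on the 16 arrays and between 5.82 and 7.30 on the others. The envelope precursors Sprr1a and Sprr2b had r = 0.92 and 0.91. Ivl and Tchh, also of the list, did not follow, with r = 0.09 and 0.18. Ivl lay between 3.16 and 4.27 on the 16 arrays and between 3.14 and 4.19 on the others. Krt6a, a keratin of internal squamous surfaces and of wounded skin, had r = 0.71, with a median of 6.81 on the 16 arrays and 5.90 on the others. The brightest probe set of Sprr1b lay between 10.43 and 12.65 on all arrays with r = 0.10, while its dimmer probe set is among the 12 closest to the score.

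Of 29 measured genes of fast skeletal muscle, 13 had r above 0.8 with the muscle score (44.8%) and 12 with the squamous score (41.4%), where 0.534% and 0.570% of all genes did. The list mean was between 5.40 and 7.30 on the 16 arrays, between 5.44 and 6.51 on the 5 and between 4.43 and 5.39 on the 74. Of 25 genes of slow and general striated muscle, 3 passed 0.8 with the muscle score and 0 with the squamous score. These were Nrap, Pgam2 and Tpm2, at 0.81 or 0.82. Myoglobin (Mb) had r = 0.80 with the muscle and 0.58 with the squamous score. On the 79 arrays the order was different, where 18 of the 25 slow and general genes had r above 0.5 with the muscle score, against 11 of the 29 fast genes and 1.26% of all genes. Fat and heart genes followed on those arrays too, with 6 of 10 and 6 of 19 above 0.5.

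Of the remaining lists, lung epithelium had 1 of 13 genes with r above 0.8 to the squamous score. There was none among heart muscle, smooth muscle, cartilage, thyroid and parathyroid, thymus, fat, peripheral nerve, mesothelium, glandular stomach, liver and red cells (0 genes in each), nor among lung endothelium. The median r of those from heart muscle to red cells ran from -0.03 for red cells to 0.39 for fat. On the 16 arrays Tg, the thyroid hormone precursor, lay between 3.21 and 4.79 and Atp4b, a stomach proton pump subunit, between 3.30 and 4.08, close to the floor. Other stomach genes were brighter, with Atp4a, the other pump subunit, between 4.72 and 6.30, and the trefoil peptides Tff1 between 6.15 and 8.67 and Tff2 between 5.70 and 9.99. Their r with the squamous score was 0.02, 0.11 and 0.16. The fat hormone adiponectin (Adipoq) ran from 4.84 to 10.80 on the 16 arrays, from 8.57 to 10.71 on the 5 and from 4.03 to 11.26 on the 74, with medians of 9.62, 9.86 and 6.76. The mean of the fat list had medians of 6.95, 6.80 and 5.22 in the same order. Both were higher on arrays with muscle transcripts by their medians, with overlapping ranges, and the part of fat tissue in the member values was not tested. Smooth muscle actin Acta2 lay between 8.90 and 10.11 on the 16 arrays and between 8.65 and 10.13 on the others.

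**Figure D5:**
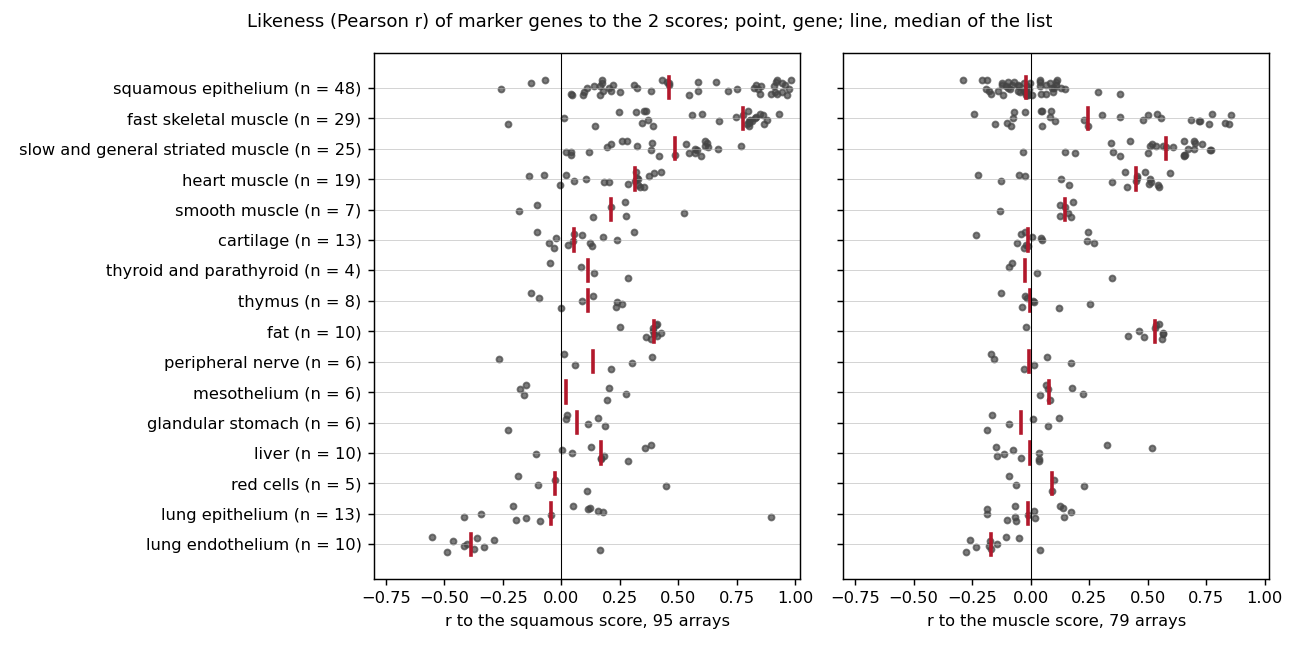
Pearson r of each measured gene of the 16 marker lists with the squamous score over 95 arrays (left) and with the muscle score over the 79 arrays without squamous transcripts (right); points are genes and red lines list medians. On the left squamous and fast muscle genes reach furthest right and endothelial genes other than Pecam1 lie left of 0, and on the right slow and general striated muscle has the highest median, 0.58.

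Most transcripts of lung epithelium moved less. The median r of the 13 lung epithelium genes with the squamous score was -0.05. Aldh3a1, an aldehyde dehydrogenase that is also abundant in cornea and other squamous surfaces, had r = 0.89. Its levels were 8.29 to 10.55 on the 16 arrays against 6.07 to 8.35. Slc34a2 and Pdpn had r of -0.42 and -0.34, so 2 of the 13 (15.4%) lay below -0.3, where 9.11% of all genes did. Slpi, a secreted protease inhibitor of mucosal surfaces that was picked after its values were seen, had r = 0.89 and a median of 10.39 on the 16 arrays against 7.86. Of 10 lung endothelium genes, 8 had r below -0.3 with the squamous score, where 9.11% of all genes did. Cldn5, a tight junction protein of endothelium, had r = -0.49 and medians of 9.96 on the 16 arrays and 10.50 on the others, and Cdh5, the endothelial cadherin, had r = -0.46 and medians of 9.85 and 10.20. The ranges of both overlapped between the sets of arrays. Gapdh, a glycolytic enzyme often used as a reference, had r = 0.80 with the muscle score and medians of 11.58 and 10.91, while Actb had r = 0.19.

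Paralogs of the members differed in how far they followed. The fast light chains Myl1 and Mylpf had medians of 9.23 and 6.99 on the 16 arrays and 5.67 and 5.20 on the others. Among metallothioneins Mt2 had r = 0.74 with the squamous score, with medians of 9.30 and 8.01, Mt1 had 0.58 and Mt3 0.40, and none of the 3 was near the floor on any array. Among galectins Lgals3 and Lgals4 had r = -0.09 and -0.08 with the squamous score, and Lgals1 had 0.48. The keratins of simple epithelium Krt8, Krt18 and Krt19 had r of -0.18, -0.15 and -0.16.

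The exposure comparisons were fitted with limma on all 12421 probe sets that are not controls, with Benjamini-Hochberg adjustment over all of them. The members were chosen from these same arrays, so their calls add no support. At day 34 in C57BL mice 1 of the 12 member probe sets passed an adjusted p of 0.05, where 6.38% of all probe sets did. It was the dimmer Krt4 probe set, 161647_f_at, which was lower in exposed mice, with a difference of -2.23 (log2, SE 0.68, limma adjusted p = 0.0426). The brighter one, 100421_at, differed by -2.67 (SE 0.89, limma adjusted p = 0.0679), Mt4 by -2.96 (SE 0.96, limma adjusted p = 0.0607) and Lgals7 by -2.47 (SE 0.78, limma adjusted p = 0.0549). Acta1 differed by -2.82 (SE 1.52) and Krt5 by 0.03 (SE 0.26), neither past the threshold. The fit shared 1 estimate of the spread over days 34 and 41. The SD of 161647_f_at was 1.74 exposed and 2.07 unexposed at day 34, but 0.25 and 0.35 at day 41. Its SE thus understates the spread of day 34, and 100421_at, Mt4 and Lgals7 also spread less at day 41. The count of called members turned on single arrays, and the number of all probe sets called, 793 with all arrays, moved with them. It was 8 without unexposed replicate 5, where 1657 of all probe sets were called. It was 6 without exposed replicate 1 or 8, where 754 and 760 were called, and 4 without exposed replicate 6, with 666. It was 0 without exposed replicate 2, 3, 4, 5, 7, 9 or 10 or unexposed replicate 1, 2 or 4, where between 510 and 1080 were called. Without unexposed replicate 3 it stayed at 1, with 1005 called. RNA quality was uneven in this comparison. The Gapdh difference (3' minus 5', log2) was 2.13, 1.69 and 1.26 on unexposed replicates 1, 2 and 4, which hold squamous transcripts, and 0.31 on replicate 3, which holds them too. It was 0.27 on unexposed replicate 5, which lacks them. On the exposed arrays with squamous transcripts it ran from -0.16 to 0.23, and it was 1.59 and 1.30 on exposed replicates 2 and 7, which lack them. The part of RNA quality in the day 34 values was not tested.

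No member passed in the other 10 comparisons (0 of 12 in each by limma), where between 0 and 3 member probe sets had an unadjusted p under 0.05. Of all 12421 probe sets, between 820 and 1885 did so in these comparisons (6.60% to 15.2%). The shares of all probe sets called were 0% for C57BL at days 7 and 21, 0.201% at day 14, 1.22% at day 32 and 0.660% at day 41. They were 0.370% for CD40L-KO at day 32, 0.00805% for CD40L-KO of day 35 against unexposed CD40L-KO of day 14, and 0.668% for CD40L-KO against C57BL at day 75. For the difference in the exposure effect between days 41 and 34 the share was 0.0564%, and for that between strains at day 32 it was 0.153%. The lowest adjusted p of a member in these was 0.135, for Ckm 161569_f_at in CD40L-KO mice of day 32, at -2.55 (SE 0.70, limma adjusted p = 0.135). Without unexposed replicate 3 of that comparison 4 members passed, which were Myl3, Ckm, Lgals7 and Mt4, and 120 of the 12421 probe sets were called in that fit against 46. At day 21 the differences were large and their errors as well, with Acta1 at -2.83 (SE 1.82) and Mt4 at -2.11 (SE 1.22). The median change of the 12 member probe sets was -2.35 at day 34 and -2.56 in CD40L-KO mice of day 32, and -0.07 in C57BL mice of day 41.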

How the data were processed

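Per the labels' protocols, biotin-labelled RNA transcribed in vitro from total lung RNA was measured on Affymetrix arrays. The values that the authors deposited are intensities on a linear scale. Their mean, without 2% of values at each end, lay between 99.99 and 100.0 on every array. Their method of summary was not given in the sources used here. They were used unscaled as log2(intensity + 8), which is computed here from the deposited intensities. By the platform annotation 10854 probe sets had 1 gene, 396 had several and 1236 had none. A probe set with a missing value was left out (1).

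The members, the marker lists, the score thresholds and the tests were chosen with earlier results of these data known. Named genes were all member probe sets, the 12 one-gene probe sets with the highest r to each score among those that passed 6 on some array, the 3 brightest of each list and its 4 closest to each score, paralogs in the lists, and Gapdh, Actb, Cd40lg, Sftpc, Sftpa1, Sftpb and Scgb1a1. Named outside this rule were Tnni1, Slc34a2, Pdpn, Slpi, Col17a1, Trp63, Lamb3, Dsc3, Lor, Sprr1a, Sprr2b, Ivl and Tchh. Groups came from the labels. Fits were made within each experiment, or over the 3 groups of days 39 and 75, with limma (version 3.58.1, R version 4.3.3; lmFit, then eBayes) and were tested on simulated data. Replicate arrays are taken as separate mice, so the p-values measure the spread between arrays. Each fit shared 1 estimate of that spread over its groups, although members spread more in groups with some high arrays. The remaining steps ran in Python 3.11.15 (numpy 2.4.6, pandas 2.3.3, matplotlib 3.10.9). Alternatives were offsets of 2 and 32, a filter on dim probe sets, quantile normalization, all arrays in 1 fit, the brightest probe set of each gene, the replicate number as a block, leaving out each array, other scores and other likeness measures.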

Additional observations from a re-analysis of the deposited data

Results flagged for a closer look

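An array was picked out where its gap to the nearest array made up more of the range of its group than Dixon's 95% critical value allows. Of 96 tests, on the 8 genes in 12 groups of 4 to 10 arrays, 41 passed, where chance flags about 1 in 20 groups. The genes were chosen because their values stood apart on single arrays of these groups, so the 41 restate that choice and support nothing. They also vary together and are not 41 separate events.

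C57BL day 14 exposed replicate 2 stood above the rest of its group, with Ckm at 5.62 and Acta1 at 7.18. C57BL day 14 unexposed replicate 4 stood above the rest of its group, with Krt4 at 12.29, Krt13 at 12.07, Lgals7 at 10.00, Mt4 at 10.93, Myl3 at 10.19, Ckm at 8.68 and Acta1 at 12.16. C57BL day 21 exposed replicate 3 stood above the rest of its group, with Krt4 at 11.07, Krt13 at 9.67, Lgals7 at 6.90, Mt4 at 7.89, Myl3 at 7.85 and Acta1 at 10.89. C57BL day 41 exposed replicate 3 stood above the rest of its group, with Myl3 at 5.24, Ckm at 5.39 and Acta1 at 10.90. C57BL day 7 exposed replicate 7 stood above the rest of its group, with Krt4 at 11.10, Krt13 at 9.68, Lgals7 at 6.87 and Mt4 at 8.05. C57BL day 7 unexposed replicate 2 stood above the rest of its group, with Myl3 at 6.39 and Acta1 at 8.78. CD40L-KO day 14 unexposed replicate 1 stood above the rest of its group, with Krt4 at 11.19, Krt13 at 11.25, Lgals7 at 6.69, Mt4 at 9.17, Myl3 at 8.59 and Acta1 at 10.83.

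C57BL day 34 unexposed replicate 5 stood below the other 4 arrays of its group, with Krt4 at 6.59, Krt13 at 3.70, Lgals7 at 3.29, Mt4 at 3.49 and Acta1 at 3.29.

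Krt5 was picked out as the highest of its group on C57BL day 21 unexposed replicate 1 (4.54), C57BL day 7 exposed replicate 1 (4.53), C57BL day 7 unexposed replicate 4 (4.03), CD40L-KO day 14 unexposed replicate 5 (4.13) and CD40L-KO day 35 exposed replicate 3 (4.22), all close to the floor of 3. Lgals7 was lowest on C57BL day 14 exposed replicate 3, at 3.18.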

How the results depend on the processing

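The 16 arrays with squamous transcripts were the same 16 with offsets of 2 and 32, quantile normalization, each gene as the mean of its probe sets, and each of the 5 genes left out in turn. The count of arrays with muscle transcripts was 24 and 18 with offsets of 2 and 32 and 20 with the mean of all probe sets, against 21. The r of the scores over the 16 arrays was 0.88 to 0.96 under these settings and with deviations from group means. Over the 79 arrays it was 0.64 with deviations from means of whole groups, which include the 16 arrays, and -0.09 with deviations from the mean of the same group's low arrays, a setting chosen after seeing the data.

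At day 34 the count of called members was 0 with offset 2, 2 with offset 32 and 4 with all arrays in 1 fit, against 1, and 0 to 8 with each array left out; without dim probe sets it was 1, but for Krt4 100421_at. For CD40L-KO mice of day 32 it was 0 to 4 with each array left out, and 0 to 0 in the other 9 comparisons. Whether replicate numbers pair the arrays is not known. In no comparison did all same-numbered arrays deviate together, which cannot show that the numbers stand for no pairing. With the replicate number as a block the count was 1 at day 34 and 0 elsewhere, and 516 of all probe sets were called at day 34 against 793. No called member changed its direction under any setting run. Dim probe sets near the floor of 3 understate differences.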

Other observations

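Ucp1, the uncoupling protein of brown fat, ran from 3.30 to 9.50 on the 16 arrays with squamous transcripts, from 3.37 to 9.06 on the 5 with muscle only and from 3.21 to 8.09 on the 74 with neither, with medians of 5.27, 4.56 and 3.62. It was at 9.50 and 8.50 on C57BL day 21 unexposed replicates 1 and 4, and at 9.06 and 8.65 on the muscle-only arrays C57BL day 7 unexposed replicate 2 and C57BL day 32 unexposed replicate 1. Its r with the squamous score was 0.41 and with the muscle score 0.51 over the 95 arrays.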
